A study of Mus musculus with 2 samples.

Results

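Mir744, Mir328, Mir330 and Mir652 are 4 abundant microRNA genes of the mouse hippocampus, each annotated at a single locus. They were chosen by their abundance, as single-locus genes among the 25 with the highest mean level, so their levels and ranks are a description and carry no test. They are 4 of 2202 listed miRNA genes, of which 401 were detected, a gene counting as detected at a level of 2 CPM or more in both libraries (CPM, the count of a gene scaled to a sum of 1000000 over all miRNA genes of its library). The levels come from microRNA-seq of hippocampus tissue (the labels write "layer of hippocampus") from male B6CASTF1/J mice aged 2 months, sized to fragments under 30 nt. B6CASTF1/J is the first-generation hybrid of C57BL/6J and CAST/EiJ, and the counts do not separate its parental alleles. The labels give 1 group of 2 biological replicates with no treatment named, as separate biosamples under 1 donor entry. The spread between the replicates, and every p below, may therefore not cover the difference between animals.

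A microRNA gene is transcribed as a longer primary transcript, often within an intron of a host gene, from which Drosha cuts a hairpin and Dicer a short duplex. An arm of the duplex is then loaded on an Argonaute protein, and its seed, bases 2 to 8, pairs with target mRNAs and lowers their output. In brain, miRNAs are known to act on mRNAs of neurons and their synapses. In mouse, miR-328 is known as a repressor of Bace1, the beta-secretase that cuts the amyloid precursor protein. In human cells, miR-744 is known to repress TGFB1, a growth factor gene.

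The mature arms show how unlike these genes are in what they could pair with. RefSeq entries of the GRCm38.p6 build were matched for 3 of the 4 members, Mir744, Mir330 and Mir652, and Mir328 was not matched. The arms are printed 5′ to 3′ with the seed in capitals.
mmu-miR-744-5p: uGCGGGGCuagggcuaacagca
mmu-miR-744-3p: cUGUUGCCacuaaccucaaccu
mmu-miR-330-5p: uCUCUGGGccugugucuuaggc
mmu-miR-330-3p: gCAAAGCAcagggccugcagaga
mmu-miR-652-5p: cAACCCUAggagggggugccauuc
mmu-miR-652-3p: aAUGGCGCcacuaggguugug

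All 6 seeds differed, and 4 of them occurred in no other gene's mature sequence among the 1738 in the RefSeq table. The seed of miR-330-5p was shared with miR-326-3p, and the seed of miR-330-3p with miR-6240. The pair that shares the miR-330-5p seed is set side by side, with the common seed in capitals.
mmu-miR-330-5p: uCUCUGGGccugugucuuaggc
mmu-miR-326-3p: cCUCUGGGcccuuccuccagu

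Mir326, in an intron of Arrb1 on chromosome 7, had 437 and 507 CPM in replicates 1 and 2, and Mir330 exceeded it 21.8-fold and 19.5-fold in these libraries. Mir6240, on chromosome 5, was near the detection limit with 7 and 11 counts, or 3.12 ± 0.147 CPM (SD, n = 2). Counts were given per gene with both arms summed, so the share of Mir330 reads that carry either seed was not measured.

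The hairpins show where those arms lie. They are printed 5′ to 3′ from RefSeq (GRCm38.p6), with the mature arms in capitals. Mir744 lies at chr11:65734733-65734832 on the minus strand, Mir330 at chr7:19181465-19181562 on the plus strand and Mir652 at chrX:142739000-142739097 on the plus strand.
Mir744: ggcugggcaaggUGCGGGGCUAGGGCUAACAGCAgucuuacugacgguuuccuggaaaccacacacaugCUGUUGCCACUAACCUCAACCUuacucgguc
Mir330: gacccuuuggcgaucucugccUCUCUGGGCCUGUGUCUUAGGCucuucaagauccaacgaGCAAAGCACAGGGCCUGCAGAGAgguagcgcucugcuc
Mir652: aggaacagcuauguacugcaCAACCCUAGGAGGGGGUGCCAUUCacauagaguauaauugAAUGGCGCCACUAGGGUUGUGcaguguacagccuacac

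Mir744 differed from the others in its wide terminal part, with 35 nt between its arms, against 17 nt in Mir330 and 16 nt in Mir652. Its GC content was 56% over the hairpin, with 58.2% in Mir330 and 50% in Mir652, beside a median of 51.7% over the 336 detected genes with a RefSeq hairpin. The minimum free energy predicted by RNAfold, a measure of how firmly a hairpin folds, was -44.8 kcal/mol for Mir744, -42.5 kcal/mol for Mir330 and -49 kcal/mol for Mir652. Per nucleotide, Mir652 was predicted to fold more firmly than 78.9% of the detected hairpins, Mir744 than 55.1% and Mir330 than 48.2%. Of the detected hairpins, 70.2% had a lower GC content than Mir744, 76.2% a lower one than Mir330 and 42.9% a lower one than Mir652. The distance between arms was computed for these 3 genes only.

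Whether a single-locus gene can be counted in full depends on whether its reads match elsewhere, since reads with several matches were in no gene's count. The longest run that a hairpin shared with any other listed miRNA gene was 15 nt for Mir744, 17 nt for Mir328, 12 nt for Mir330 and 10 nt for Mir652. All were under the 20 nt used here to mark genes whose reads may not be placed, a mark that 1084 of the 2202 listed genes carried. The 6 arms were also searched in full, on both strands, in the 141767 transcripts of GENCODE M21. The arms of Mir744 and Mir652 were found in their own gene alone, and the arms of Mir330 in Mir330 and in its host gene Eml2, at the same place. Matches outside annotated transcripts were not searched. Of the 25 most abundant genes, 22 carried no shared run of 20 nt, so 18 further genes had the same property as the 4 members.

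Mir744 was the most abundant of the 4 in both libraries, and the other 3 lay close together far below it. Mir744 (ENSMUSG00000076460.1) had 86713 counts in replicate 1 and 143568 in replicate 2, which equal 37336 and 42051 CPM. Its mean was 39694 ± 3334 CPM (SD, n = 2), or 3.97% of all miRNA-gene counts. It ranked 7th of all genes in replicate 1 and 6th in replicate 2.

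Mir328 (ENSMUSG00000070130.1) had 24270 counts in replicate 1 and 37183 in replicate 2, or 10450 and 10891 CPM, with a mean of 10670 ± 312 CPM (SD, n = 2). Mir330 (ENSMUSG00000065543.1) had 22117 and 33812 counts, or 9523 and 9904 CPM, with a mean of 9713 ± 269 CPM (SD, n = 2). Mir652 (ENSMUSG00000076011.1) had 23929 and 29478 counts, or 10303 and 8634 CPM, with a mean of 9469 ± 1180 CPM (SD, n = 2). Mir652 stood between Mir328 and Mir330 in replicate 1 and below both in replicate 2. Its SD was 12.5% of its mean, against 8.4% for Mir744, 2.92% for Mir328 and 2.77% for Mir330.

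**Figure D1:**
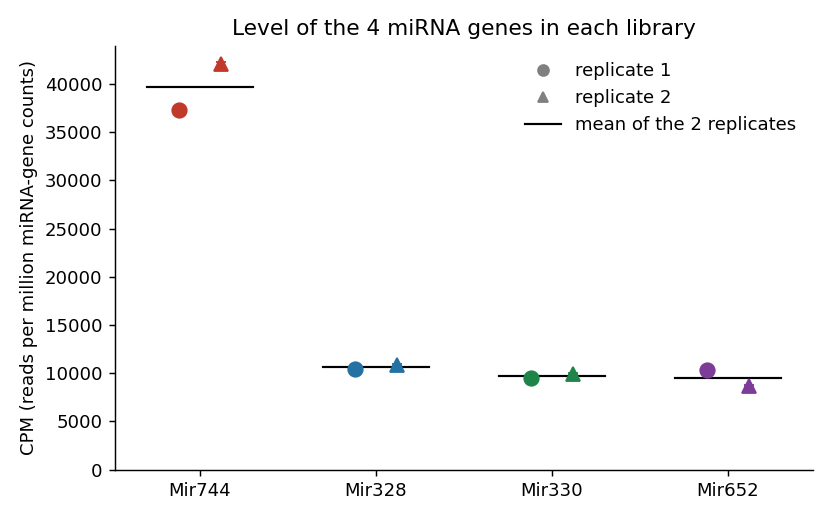
CPM (linear axis from 0) of each gene in replicate 1 (circles) and replicate 2 (triangles), with Wilson 95% intervals that are mostly smaller than the symbols and the mean as a line. Mir744 sits at 37336 and 42051 CPM, and the other 3 genes sit between 8634 and 10891 CPM.

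Together the 4 genes held 6.76% of miRNA-gene counts in replicate 1 and 7.15% in replicate 2. Depth was ample for single levels, as the Wilson 95% interval of Mir652 was 10174 to 10434 CPM in replicate 1 and 8537 to 8733 CPM in replicate 2. Such intervals cover counting error only and treat each read as an independent molecule. How PCR copies of a molecule were handled is not given in the sources used here. The intervals of the libraries overlapped for none of the 4 genes, also not for Mir330, with 9399 to 9649 CPM in replicate 1 and 9799 to 10009 CPM in replicate 2. The spread of Mir652 and Mir744 was larger than the counting error of independent reads. For Mir328 and Mir330 the difference depended on the scaling, as given below, so the intervals alone do not show this. As shares of every read of the library, placed or not, Mir744 held 1.35% in replicate 1 and 1.44% in replicate 2.

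The order of the 4 was compared within each library, where the ratio of 2 genes does not depend on scaling. Mir744 exceeded Mir328 3.57-fold in replicate 1 (exact Clopper-Pearson 95% interval 3.52 to 3.62) and 3.86-fold in replicate 2 (3.82 to 3.91). Its ratio to Mir330 was 3.92-fold and 4.25-fold, and its ratio to Mir652 was 3.62-fold and 4.87-fold. These ratios describe genes chosen for their level and carry no test.

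Mir328 and Mir330 kept nearly the same proportion in both libraries. Mir328 exceeded Mir330 1.097-fold in replicate 1 (95% interval 1.08 to 1.12) and 1.0997-fold in replicate 2 (1.08 to 1.12). With 2 libraries, such closeness is a description of this pair. Mir328 over Mir652 was 1.01-fold and 1.26-fold in replicates 1 and 2, and Mir330 over Mir652 was 0.924-fold and 1.15-fold. The SD of either log2 ratio over the libraries, 0.22, was larger than its mean, 0.18 for Mir328 and 0.04 for Mir330, so these neighbours did not differ beyond their spread, a description that rests on 2 libraries and is no test.

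The last gene inside the limit that chose the members was Mir382 at rank 25, with 9792 and 6806 CPM in replicates 1 and 2. The first gene outside was Mir770 at rank 26, with 10462 and 5949 CPM, above Mir328, Mir330 and Mir652 in replicate 1 and below all 3 in replicate 2. By mean, Mir652 at rank 22 was the member nearest to the limit, followed by Mir330 at rank 20 and Mir328 at rank 16.

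**Figure D2:**
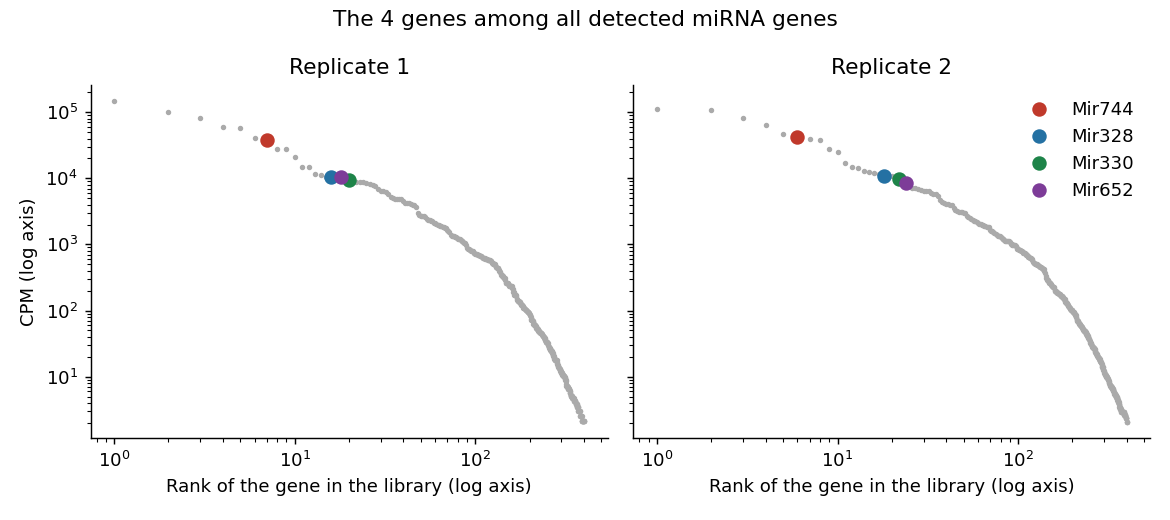
CPM of every detected miRNA gene against its rank, both on log axes, in replicate 1 (left) and replicate 2 (right), with the 4 genes in colour. Mir744 holds rank 7 and rank 6, and the other 3 genes hold ranks 16 to 20 in replicate 1 and 18 to 24 in replicate 2.

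Genes most like each member were taken as the 3 detected genes at the smallest distance in log2(CPM + 1) over the 2 libraries, a likeness in level that rests on 2 points. Mir744 was nearest to Mir127, the imprinted gene opposite Rtl1, which had 40661 and 38792 CPM, at a distance of 0.17. Mir127 ranked above Mir744 in replicate 1 and below it in replicate 2, and their means, 39726 ± 1321 CPM for Mir127, differed by less than the spread of either gene. Next came Mir99a at 0.42 and Mirlet7d at 0.64. Mir328 was nearest to Mir132, known to be induced by neuronal activity, at 0.09, followed by Mir29a at 0.18 and Mir330 at 0.19. Mir330 was nearest to Mir99b, at 0.13, followed by Mir328 at 0.19 and Mir23a at 0.20. Mir652 was nearest to Mir433, at 0.02, with 10384 and 8514 CPM, followed by Mir330 at 0.23 and Mir99b at 0.27. Mir99a and Mirlet7d lay farther from Mir744 than any named neighbour lay from the other 3 members.

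In genomic position Mir328 differed from the other 3 members. Mir744, Mir330 and Mir652 lie on the strand of a protein-coding host gene and within its introns, whereas Mir328 lies opposite the coding strand of Elmo3. No gene on the strand of Mir328 overlapped it among the protein-coding and long noncoding genes of GENCODE M21. All coordinates are those of mm10.

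Mir744 lies in an intron of Map2k4, which encodes a kinase that activates the JNK and p38 stress kinases. In the full-length coding transcript it lies in intron 3, which spans 15588 bp. The hairpin starts 359 bp after the upstream exon and ends 15129 bp before the downstream exon. It was intronic in 3 of the 4 coding transcripts and outside the remaining one. The nearest other listed miRNA gene on chromosome 11 was 666926 bp away.

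Mir652 lies in an intron of Tmem164, which encodes a membrane protein, on the X chromosome, of which these male mice have a single copy. The hairpin was intronic in 5 of 7 coding transcripts, in introns of 69090 to 89410 bp. Its least distance to an exon of those transcripts was 12942 bp. No other listed miRNA gene lay within 10 kb, and the nearest was 223506 bp away.

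Mir330 lies close to the start of Eml2, which encodes a microtubule-associated protein. It was in intron 1 in 4 of 5 coding transcripts and in intron 4 of the remaining one, and the 485 bp intron 1 of the leading transcript leaves 241 bp before and 146 bp after the hairpin. In that transcript the hairpin began 261 bp after the transcript start. It overlaps an exon of 1 noncoding transcript of Eml2. The nearest other miRNA gene was 94573 bp away.

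Mir328 lies at chromosome 8, positions 105308364 to 105308460, on the minus strand, with Elmo3, a member of the engulfment and cell motility family, on the plus strand. Its 97 bp hairpin overlaps 12 bp of an exon in both full coding transcripts of Elmo3, and the rest faces an intron. Gm27320, the only other listed miRNA gene within 10 kb of any member, lies 464 bp away on the same strand. It had 0 counts in both libraries. The approximate 95% upper limit for a count of 0 is 3 counts, which equal 1.29 CPM in replicate 1 and 0.879 CPM in replicate 2.

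**Figure D3:**
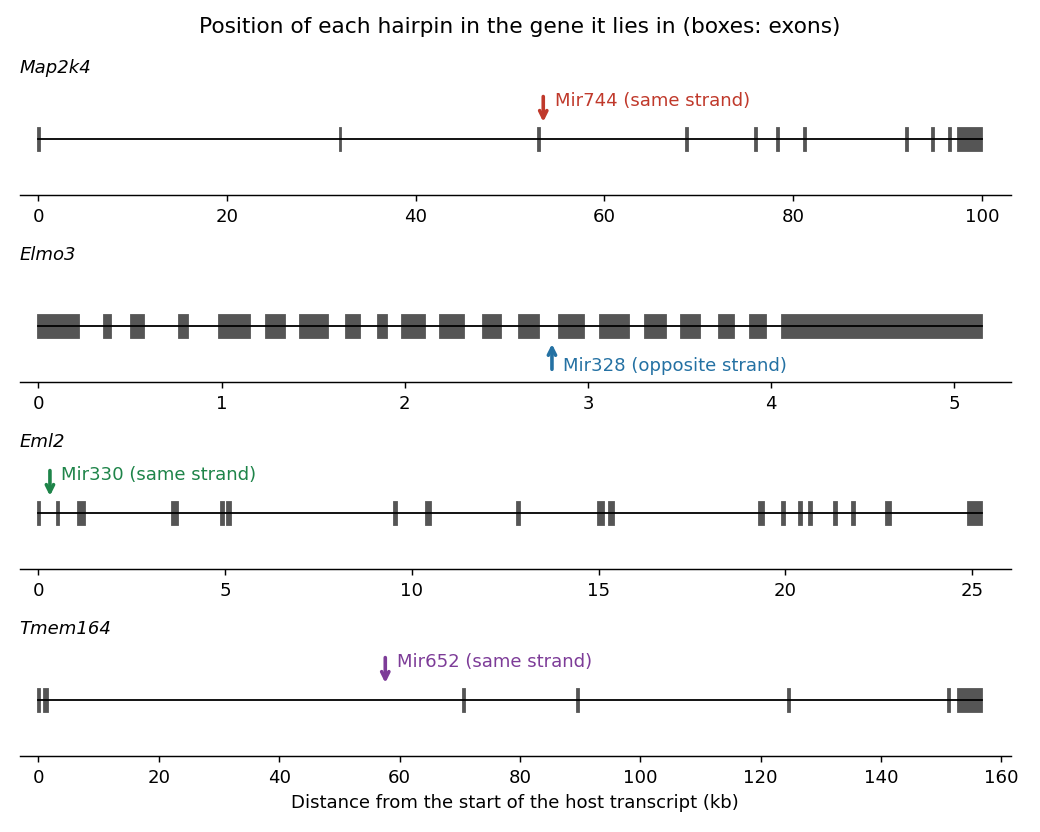
Position of each hairpin (arrow) along the first listed coding transcript of the gene it lies in, as distance in kb from the transcript start, with exons as boxes. Mir744, Mir330 and Mir652 (arrows from above) are on the strand of the gene, and Mir328 (arrow from below) is on the opposite strand of Elmo3.

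Since Mir328 lies opposite the annotated gene Elmo3, reads from the opposite strand could have mattered. In the deposited counts, the opposite-strand column held 0 counts for all 4 members in both libraries. For Mir328 the approximate 95% upper limit of 3 counts equals 0.0124% of its same-strand count in replicate 1 and 0.00807% in replicate 2. The column for both strands together held the same counts as the same-strand column for all 4 members, so no read was lost there to an overlapping miRNA gene. Of the 401 detected genes, 372 had 0 opposite-strand counts in both libraries, and 27 lost over 50% of their counts in the both-strand column.

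Position was then compared over all genes, as a description. Of 789 listed miRNA genes in a same-strand intron of a protein-coding gene, 186 (23.6%) were detected, with a median of 50.6 CPM. Within this class Mir744 was 3rd by mean level, after Mirlet7g in Wdr82 and Mir139 in Pde2a, and Mir330 and Mir652 were 10th and 11th. The class also held 12 of the 25 most abundant genes and 46.0% of miRNA-gene counts, beside 186 of all 401 detected genes. An intronic place was thus about as common at this level as among all detected genes. Opposite-strand genes were rarer, with 16 of 280 listed genes detected (5.71%). Mir328 was 2nd among these 16, after Mir127, and Mir433 came next, both of which lie opposite Rtl1. Host-gene mRNA was not measured in these libraries, so host and hairpin levels could not be compared.

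**Figure D4:**
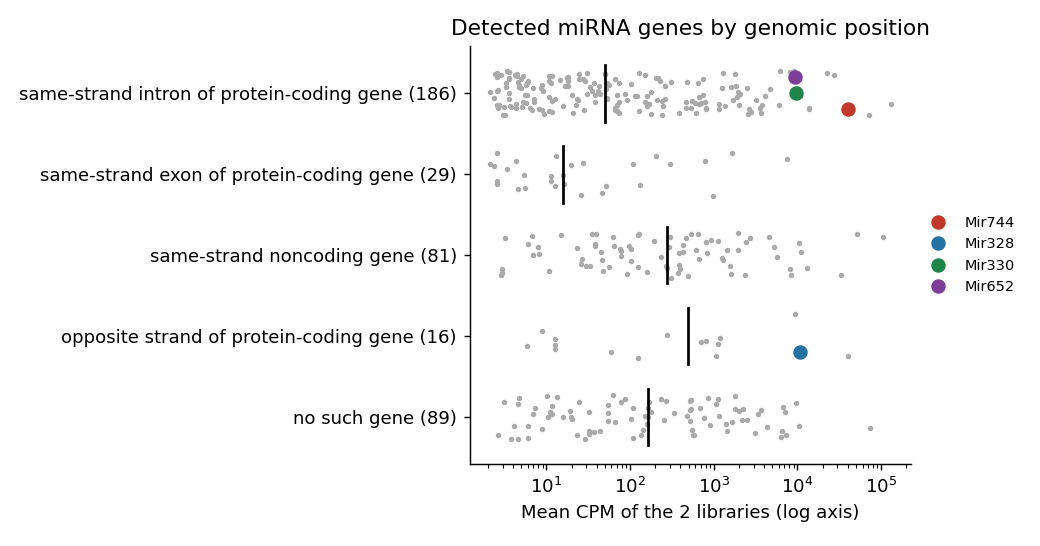
Mean CPM (log axis) of the detected miRNA genes by genomic position, with the number detected in parentheses, the class median as a black line and the 4 genes in colour. Mir744, Mir330 and Mir652 lie far right of the 50.6 CPM median of the intronic class, and Mir328 is 2nd of 16 opposite-strand genes.

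The difference between the libraries was not used to choose the members and could be tested. After TMM scaling, Mir744 was 1.11-fold higher in replicate 2 (log2 0.15, adjusted exact binomial p = 6.44e-123) and Mir652 1.21-fold lower (log2 -0.28, adjusted exact binomial p = 1.84e-108). Mir328 was 1.02-fold higher in replicate 2 (adjusted exact binomial p = 0.00846), as was Mir330 (adjusted exact binomial p = 0.0254). All 4 members were called different by this test, beside 50.9% of the 401 detected genes and 100% of the other 21 genes of the 25 most abundant. At counts this high the test calls very small differences, and the count of calls does not set the members apart from genes of their level. Like the intervals, these p-values cover counting error only and treat each read as an independent molecule.

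The calls for Mir328 and Mir330 depended on the scaling. With DESeq2 size factors the log2 ratio was 0.0031 for Mir328 (adjusted exact binomial p = 0.879) and -1.12e-05 for Mir330 (adjusted exact binomial p = 1). Mir330 was itself the median gene in the ratio of replicate 2 to replicate 1, with 200 detected genes on each side. DESeq2 size factors rest on the median ratio, so with 2 libraries they left Mir330 without a difference by construction. The value of Mir330 under that scaling is therefore no test, and Mir328, with nearly the same ratio, lay close to the same centre. Over 7 alternatives the adjusted exact binomial p ran from 1.70e-06 to 0.879 for Mir328 and from 1.69e-05 to 1 for Mir330. Mir744 stayed higher and Mir652 lower in replicate 2 in all 7. The alternative that added 5 in place of 0.5 to each count alters the log2 ratio only, so it could not change p.

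By size after TMM scaling, the differences of Mir328 and Mir330 were among the smallest. Such smallness depends on where the scaling sets its centre, and by total counts their log2 ratios were 0.060 and 0.057. Of the 401 detected genes, 3.99% had a smaller absolute log2 difference than Mir328 and 2.99% a smaller one than Mir330, against 24.7% for Mir744 and 43.4% for Mir652. Among the 25 most abundant genes, Mir330 had the 2nd smallest difference and Mir328 the 3rd, after Mirlet7e. The median absolute log2 difference was 0.09 for the 4 members, 0.31 for the other 21 abundant genes and 0.33 for all detected genes. A biological coefficient of variation of 30.1% came from edgeR over all detected genes of these same libraries, members included. It would give a log2 spread of 0.61 between 2 libraries, which is wider than the difference of any member. Most of the other 21 abundant genes also differed by less than 0.61, so this does not set the members apart. This set of 4 is small, and its median was not tested.

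**Figure D5:**
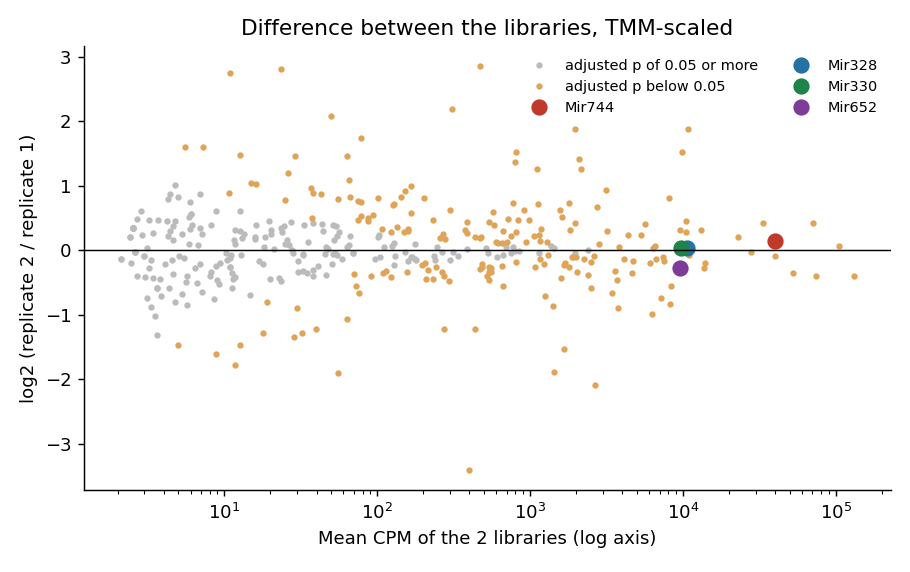
log2 ratio of replicate 2 over replicate 1 after TMM scaling against mean CPM (log axis) for the 401 detected genes, in orange where the adjusted exact binomial p is below 0.05 and in grey elsewhere. Mir328 and Mir330 lie almost on the zero line, Mir744 lies at 0.15 and Mir652 at -0.28.

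The libraries held 6441333 and 10003856 reads in replicates 1 and 2, and 2322520 and 3414105 of them fell on miRNA genes. Reads with several matches took 42.6% and 46.0%. Of 11 neuron-enriched marker genes 9 were detected, at summed levels of 33706 and 48289 CPM, led by Mir132. Oligodendrocyte genes summed to 4367 and 2683 CPM (3 of 3 detected, led by Mir338), and endothelial genes to 14889 and 12474 CPM (1 of 2, Mir126a). Mural and smooth muscle genes summed to 6456 and 6935 CPM (2 of 2, led by Mir143), and erythrocyte genes to 1922 and 1149 CPM (3 of 3, led by Mir451a). Microglia and leukocyte genes summed to 676 and 1100 CPM (3 of 4, led by Mir150), and choroid plexus genes to 1052 and 994 CPM (4 of 5, led by Mir204). Mir122, the liver marker, stood at 52.1 and 40.7 CPM, and striated muscle genes at 55.1 and 24.0 CPM (1 of 6, Mir206). The neuron-enriched and the microglia and leukocyte sums were thus higher in replicate 2 and the oligodendrocyte and erythrocyte sums lower. Not every gene moved with the sum of its list. Of the detected neuron-enriched genes, Mir128-1 (4518 and 16906 CPM), Mir128-2, Mir137 and Mir212 were higher in replicate 2. Most of the rise in the sum lay in Mir128-1, which carried a shared run of 20 nt, so some of its reads may not be placed. Mir124a-1, with 2.58 and 3.22 CPM, was near the detection limit and not called different. Reads with several matches were in no gene's count, so a low count does not show that a miRNA was scarce. Mir132 (11112 and 10719 CPM), Mir138-1 (4809 and 2633 CPM), Mir138-2 and Mir134 were lower. Mir219a-2 had 2447 and 865 CPM and Mir338 1911 and 1811 CPM. Mir451a had 1807 and 1007 CPM, while Mir144 (94.7 and 121 CPM) was higher in replicate 2. Mir486 (20.7 and 21.4 CPM) and Mir155 (43.1 and 33.4 CPM) also went against their lists, but neither was called different. In the choroid plexus list, Mir204 (590 and 738 CPM) and Mir34b (6.46 and 18.7 CPM) were higher in replicate 2. Mir34c (382 and 167 CPM) was lower, and Mir449a (70.2 and 69.4 CPM) was not called different. The part of such differences in the shift of Mir652 or Mir744 was not tested.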

How the data were processed

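Per the labels, small RNA of hippocampus was sequenced in 2 libraries of 1 group and mapped to mm10. The deposited tables hold whole-number counts per miRNA gene, as the authors made them, without normalization. Per the file headers of the deposited file lists, the annotation was GENCODE M21. For the aligner and counter, tool and settings are not given in the sources used here. The columns hold both strands together, the strand of the gene (used here) and the opposite strand. The 4 rows naming no gene held 63.9% and 65.9% of reads in replicates 1 and 2 and were left out of totals and tests.

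From the counts, CPM was computed over the 2202 miRNA genes. Libraries were compared across all detected genes with an exact binomial test (two-sided) and Benjamini-Hochberg adjustment at 0.05. Its expected share came from TMM-scaled library sizes (edgeR 4.0.16, R 4.3.3). The test was tried on simulated counts that held counting error only, so that trial does not cover the wider spread between these libraries. The test compares 2 libraries, not conditions. Log2 ratios added 0.5 to each count. Hairpins were folded with ViennaRNA 2.7.2. Intervals used SciPy 1.17.1. A chi-square of counts over genes (132901 on 714 degrees of freedom) showed 2 distinct libraries. Exons in the position classes are those of coding transcripts for protein-coding genes. Arms were searched in transcripts in place of the genome, which was not used here. Genes named besides the members are the 3 nearest in level, seed relatives, miRNA genes within 10 kb, ranks 25 and 26, and marker leaders. A few others are named as class leaders or as further genes of the marker lists, chosen after their values were seen. The members and marker lists were chosen with earlier results of these data known.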

Additional observations from a re-analysis of the deposited data

How the results depend on the processing

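All 4 genes stayed among the 25 most abundant under every alternative scaling, column, gene filter and single library tried. Mir744 was at rank 6 or 7, Mir328 at 13 to 18, Mir330 at 17 to 22 and Mir652 at 18 to 24. Rescaling a library keeps the order of genes within it. The 4 genes were chosen by these same levels, so their ranks are again a description and no support. Their summed level depends on what the total includes. It was 69546 CPM as reported, 75086 CPM with the both-strand column and 76838 CPM without genes sharing 20 nt. It was 122339 CPM without the 5 most abundant genes in the total, 116364 CPM without the let-7 family and 24387 CPM over all reads. TMM and DESeq2 scaling moved the sum by no more than 1 SD. With 2 libraries, either library alone lies within 1 SD of their mean by construction, so its sum is no check. The number of members called different between the libraries was 4 as reported and 2 (Mir744 and Mir652) with DESeq2 size factors, at 10 CPM or more, and without genes sharing 20 nt. The log2 ratio of Mir330 was -1.12e-05 with DESeq2 size factors, a value set by that scaling because Mir330 was the median gene. At 10 CPM or more the log2 ratio turned to -0.017 for Mir330 and to -0.013 for Mir328. The count of all genes called stayed within 1.5 times of 204, while its share of the genes tested was 50.9% as reported, 29.4% of 715 genes with no filter and 63.9% of 299 genes at 10 CPM or more. The detected share of intronic genes was 23.6% as reported, 15.8% at 10 CPM, 32.4% among symbols beginning with Mir and 31.4% without genes sharing 20 nt, as the alternatives change which genes count. No paired analysis was possible because there is 1 group. With 2 libraries and 1 donor entry, differences between animals cannot be judged.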

Other observations

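By the exact binomial test, 204 of all 401 detected genes (50.9%) differed between the libraries, 113 higher and 91 lower in replicate 2, with a median log2 ratio of 0.03. On chromosome 11, which carries Mir744, 18 of 27 detected genes differed, 10 higher and 8 lower in replicate 2, with a median of 0.16. On chromosome 8, which carries Mir328, 9 of 24 differed, 6 higher and 3 lower, with a median of -0.18. On chromosome 7, which carries Mir330, 9 of 23 differed, 5 higher and 4 lower, with a median of -0.03. On the X chromosome, which carries Mir652, 19 of 35 differed, 9 higher and 10 lower, with a median of -0.01. These chromosome values are descriptions over few genes and were not tested.

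By hairpin GC content, the median log2 ratio of replicate 2 over replicate 1 was 0.04 over the 112 detected genes with the highest GC, which include Mir744 and Mir330. It was 0.04 over the 112 genes of middle GC, which include Mir652, and -0.04 over the 112 of lowest GC.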
